A study of Mus musculus with 6 samples.

Results

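Protocadherins are cadherin-type adhesion proteins of the cell surface, and mouse cells carry them both as single genes and as the alpha, beta and gamma clusters. The genes described here are the 70 of 54446 listed genes whose symbol begins with Pcdh, with antisense and Riken-named transcripts left out. Of them, 58 are clustered genes on chromosome 18, which lie between 36930184 and 37841873 (GRCm38, GENCODE M21) and comprise 14 alpha, 22 beta and 22 gamma genes. The gamma genes divide into 12 of type A, 7 of type B and 3 C-type genes. The other 12 are single genes, among them Pcdh1 and Pcdh12 on the same chromosome. One symbol, Pcdha11, stands for 2 gene identifiers, which were kept apart.

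In the alpha and gamma clusters each variable first exon has its own promoter and is spliced to constant exons that all genes of the cluster share, whereas most beta genes are made of 1 exon. Single neurons are known to use only a few variable isoforms, and cells that display the same combination bind and then repel each other, which is the basis of dendrite self-avoidance. Promoter choice is known to depend on CTCF, cohesin and DNA methylation. Single protocadherins such as Pcdh10 and Pcdh17 recruit actin regulators of the WAVE complex to cell contacts, and Pcdh15 is best known from the tip links of hair cells in the inner ear.

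Gene expression was measured in 6 droplet libraries of mouse glioma cells. GL261, an established mouse glioma line, was kept in differentiation medium with fetal calf serum and gave 2 libraries. GL261-GSCs, glioblastoma stem cells that the series derived from GL261, were kept in a defined medium for such cells and gave 4 libraries. Cells and neurospheres were dissociated with Accutase and treated with a detergent lysis buffer, and 5′ libraries were made from captured cells or nuclei. The medium and the cell line changed together and cannot be told apart. The labels name neither the number of clones nor separate cultures behind the replicates, so p-values measure the spread between these libraries, which may be technical.

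Between 4264 and 7275 cells were called per library, with 33320530 to 79472306 UMIs (unique molecular identifiers, each counting 1 captured RNA molecule). GL261-GSCs replicate 4 stood apart in depth, with 41.2% of its UMIs in called cells and a median of 6670 UMIs per cell, against 56.7 to 65.7% and 10638 to 15478 UMIs in the other libraries. Called cells of any pair of libraries shared 32 to 59 barcodes. Protocadherins made up 16959 to 32633 UMIs per library, 0.0269 to 0.0509% of the total. Markers of oligodendrocyte precursors summed to 505 to 563 CPM (UMIs per 1000000) in GL261 and 1291 to 2300 CPM in GL261-GSCs.

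The sequences just upstream of 6 single genes that differed between the cultures are shown here, because these genes carry the largest changes among the members with an upstream sequence at hand. The RefSeq table (GRCm38.p6) held an upstream window for 9 of the 70 genes, all single. Each sequence runs 5′ to 3′ on the strand of the gene and ends at the base before the RefSeq start, or before the first annotated exon base where that comes earlier. Capitals mark CCAAT on either strand (CCAAT or ATTGG), the CCAAT box of many promoters, a motif chosen after the sequences were seen. Pcdh15, Pcdh9, Pcdh10 and Pcdh17 were higher in GL261-GSCs, and Pcdh18 and Pcdh19 were higher in GL261.
Pcdh15, chr10:73821617-73821866, plus strand: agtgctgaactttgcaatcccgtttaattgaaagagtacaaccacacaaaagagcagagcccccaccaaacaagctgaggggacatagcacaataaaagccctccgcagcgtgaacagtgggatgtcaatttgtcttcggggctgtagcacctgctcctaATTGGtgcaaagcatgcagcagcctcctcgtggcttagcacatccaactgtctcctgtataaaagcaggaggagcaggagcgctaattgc
Pcdh9, chr14:93890680-93890929, minus strand: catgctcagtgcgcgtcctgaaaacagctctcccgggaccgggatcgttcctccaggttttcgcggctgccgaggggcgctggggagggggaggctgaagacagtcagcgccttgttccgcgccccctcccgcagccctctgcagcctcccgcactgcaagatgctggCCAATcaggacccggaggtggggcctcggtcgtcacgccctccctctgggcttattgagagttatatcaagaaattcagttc
Pcdh10, chr3:45378148-45378397, plus strand: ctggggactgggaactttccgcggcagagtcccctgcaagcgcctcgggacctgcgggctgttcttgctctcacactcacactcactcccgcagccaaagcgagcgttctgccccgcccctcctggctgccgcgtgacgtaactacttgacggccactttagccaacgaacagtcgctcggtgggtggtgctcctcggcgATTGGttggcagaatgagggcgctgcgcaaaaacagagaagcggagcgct
Pcdh17, chr14:84443313-84443562, plus strand: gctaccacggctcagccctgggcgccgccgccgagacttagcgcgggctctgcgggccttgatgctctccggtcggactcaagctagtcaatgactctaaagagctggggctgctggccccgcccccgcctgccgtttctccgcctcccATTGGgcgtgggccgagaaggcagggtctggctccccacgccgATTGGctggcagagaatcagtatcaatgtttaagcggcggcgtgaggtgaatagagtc
Pcdh18, chr3:49757326-49757566, minus strand: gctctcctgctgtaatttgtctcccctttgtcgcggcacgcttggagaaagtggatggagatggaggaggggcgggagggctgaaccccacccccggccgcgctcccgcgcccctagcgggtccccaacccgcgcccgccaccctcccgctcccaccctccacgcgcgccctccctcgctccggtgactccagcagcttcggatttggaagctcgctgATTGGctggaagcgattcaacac
Pcdh19, chrX:133688994-133689243, minus strand: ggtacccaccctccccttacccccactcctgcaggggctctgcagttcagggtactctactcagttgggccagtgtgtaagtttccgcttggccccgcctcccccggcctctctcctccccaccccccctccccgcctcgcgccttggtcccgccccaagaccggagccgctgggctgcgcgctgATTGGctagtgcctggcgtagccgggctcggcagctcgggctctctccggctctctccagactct

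A CCAAT motif was present in the 250 bases upstream of 8 of these 9 single genes, all but Pcdh7. It was present in 33.8% of 32851 such windows outside chromosome 18. The motif was found upstream of genes that were higher and of genes that were lower in GL261-GSCs. The E-box CANNTG, which reads the same on both strands, occurred upstream of Pcdh15 (2 matches) and Pcdh19 (1 match) and in none of the other 7 windows, against 66.2% of all windows. None of these 3 E-box matches overlapped a CCAAT. The windows of Pcdh10, Pcdh17, Pcdh9 and Pcdh19 held 22, 21, 18 and 16 CpG dinucleotides and that of Pcdh18 held 23, against a median of 6 over all windows. The windows of Pcdh8, Pcdh7, Pcdh15 and Pcdh20 held 11, 7, 6 and 3. These counts are over 250 bases, of which 241 are shown for Pcdh18. These matches describe letters only. The annotation also places starts of Pcdh15 transcripts far upstream of the window shown.

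Of the 70 protocadherins, 52 had enough UMIs to be tested between the cultures, and the GL261-GSCs level was higher in 17 and lower in 6 (edgeR quasi-likelihood test, Benjamini-Hochberg adjusted p under 0.05 over 18439 genes). Among all genes tested, 29.9% were called in either direction, 15.8% higher and 14.1% lower. No overlap between the groups was seen for 21 members that were higher and 12 that were lower, which compares with 28.7% and 28.0% of all genes tested. Of 21 tested beta genes 12 were higher and 0 lower, of 22 gamma genes 0 were higher and 3 lower, and of 9 tested single genes 5 were higher and 3 lower. The gamma share of lower calls (13.6%) is near that of all genes, and the difference between the families was not tested. The counts of 0 were also 0 at an unadjusted p under 0.05 and by DESeq2 and limma-voom. All 14 alpha genes fell below the count filter, as did Pcdhb1, Pcdh8, Pcdh11x and Pcdh12. A gene could pass this filter through either group alone, and then entered the test only because that group was high. Pcdh9, Pcdh15, Pcdhb2, Pcdhb3, Pcdhb4, Pcdhb6, Pcdhb8 and Pcdhb10 passed through GL261-GSCs alone, and Pcdh19 through GL261 alone. In these sums over cells, fewer cells with a transcript and less RNA per cell cannot be told apart.

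Among single genes, Pcdh15 and Pcdh9 were nearly absent from GL261 and reached high levels in GL261-GSCs. Pcdh15 had 1 UMI in each GL261 library. It was at 24.5, 6.03, 136 and 168 CPM in GL261-GSCs replicates 1 to 4. The GL261-GSCs libraries thus spanned 27.8-fold among themselves, the widest range of the tested members with UMIs in all 4, and the lowest still lay far above GL261. The ratio of summed levels was 4766 (95% counting interval 1319 to 39361; adjusted p = 0.0103 in edgeR). This call was lost in limma-voom (adjusted p = 0.158) and without either GL261 library (highest adjusted p = 0.0919).

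Pcdh9, a single protocadherin of the delta type that is widely expressed in brain, had 1 UMI in GL261 replicate 1 and 0 in replicate 2. It was at 53.4, 26.5, 12.6 and 15.8 CPM in GL261-GSCs replicates 1 to 4. Its order among these libraries was thus unlike that of Pcdh15, with the highest level in replicate 1 and the lowest in replicate 3. The ratio of summed levels was 3529 (95% counting interval 633 to 139408; adjusted p = 0.00103 in edgeR).

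Pcdh10, also called OL-protocadherin, and Pcdh17 are delta-type protocadherins that act on the actin cytoskeleton at contacts. Pcdh10 was at 0.267 and 0.414 CPM in GL261 and at 10.2, 13.8, 21.1 and 22.7 CPM in GL261-GSCs. Pcdh17 was already present in GL261, at 8.13 and 6.92 CPM, and stood at 80.1, 68.7, 47.3 and 51.1 CPM in GL261-GSCs. The groups did not overlap for either gene, and the changes were far larger than the spread within a group. On the log2 scale Pcdh10 rose by 5.63 (SE 0.50, adjusted p = 0.000502) and Pcdh17 by 3.04 (SE 0.28, adjusted p = 0.000552), both in edgeR.

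Pcdh7, a further delta-type gene, showed the smallest rise of the 5. It was at 18.5 and 20.8 CPM in GL261 and at 35, 34.6, 35.8 and 41.7 CPM in GL261-GSCs (log2 fold change 0.90, SE 0.14, adjusted p = 0.00467 in edgeR). The call was lost without GL261 replicate 1 (adjusted p = 0.0712). The antisense transcript 4932441J04Rik covers 51.8% of the first exon of Pcdh7, and its log2 fold change was 0.64 (adjusted p = 0.0633). The other tested genes of chromosome 5 had a median log2 fold change of 0.27, the highest of the chromosomes that carry members.

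Pcdh1, Pcdh18 and Pcdh19 were lower in GL261-GSCs. Pcdh1, an adhesion protein of epithelial cells, was at 103 and 90.3 CPM in GL261 and at 1.82, 2.22, 9.98 and 7.58 CPM in GL261-GSCs, and its log2 level fell by 4.16 (SE 0.67, adjusted p = 0.00496 in edgeR). Pcdh18 was at 42.1 and 45.6 CPM in GL261 and at 4.79, 5.58, 3.35 and 3.71 CPM in GL261-GSCs, and fell by 3.33 (SE 0.22, adjusted p = 0.000177 in edgeR). Every GL261 library lay above every GL261-GSCs library for both genes.

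Pcdh19, the gene linked to an epilepsy seen mostly in females, was low throughout. GL261 held 28 and 33 UMIs of it, 0.415 and 0.547 CPM, and GL261-GSCs held 3 UMIs, all in replicate 2. The ratio of GL261 over GL261-GSCs was 40.5 (95% counting interval 13.2 to 202; adjusted p = 0.00618 in edgeR). Without GL261 replicate 2 the adjusted p was 0.0612.

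Pcdh20 was the tested single gene that was not called. Its levels of 0.119 and 0.348 CPM in GL261 lay within those of GL261-GSCs, which were 1.20, 0.0966, 0.325 and 0.961 CPM (log2 fold change 1.45, SE 1.01, adjusted p = 0.316 in edgeR). With 1 library left out its log2 fold change ran from 0.86 to 2.4. Pcdh8 and Pcdh11x had 2 UMIs each over all libraries, both from GL261-GSCs, and Pcdh12, an endothelial protocadherin, had 5 UMIs over both GL261 libraries and 4 over the other 4. Pcdh10 and Pcdh18 both lie on chromosome 3 and changed in opposite directions, while the other tested genes of that chromosome had a median log2 fold change of -0.13.

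**Figure D1:**
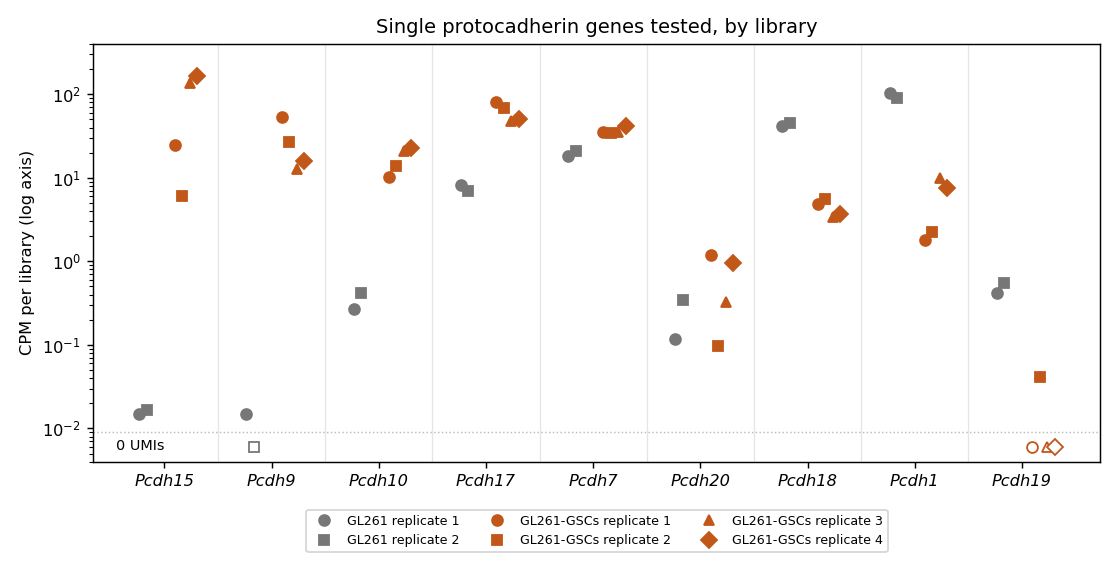
CPM of the 9 tested single protocadherins in each library, on a log axis, with grey symbols for GL261, orange symbols for GL261-GSCs and open symbols for libraries with 0 UMIs. Pcdh15 spans 6.03 to 168 CPM among the GL261-GSCs libraries, and Pcdh20 is the gene whose groups overlap.

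Because UMIs count molecules by their 5′ ends, levels were not divided by gene length, and shares of UMIs are shares of captured molecules. The leading protocadherins changed with the culture. In both GL261 libraries Pcdhgc3 came first, with 39.1 and 39.3% of all protocadherin UMIs, followed by Pcdh1 (26.8 and 24.7%) and Pcdh18 (11 and 12.5%). Pcdhgc3 came second in all 4 GL261-GSCs libraries, with 14.2 to 22.0%. Pcdh17 came first in replicates 1 and 2 (24.4 and 26.4%) and Pcdh15 in replicates 3 and 4 (33.2 and 36.0%). At a mean of at least 1 CPM, 19 members were present in GL261, 25 in GL261-GSCs and 16 in both. The 9 that passed this level in GL261-GSCs alone were Pcdh9, Pcdh10, Pcdh15 and 6 beta genes. The 3 that passed it in GL261 alone were the gamma genes Pcdhgb8, Pcdhga12 and Pcdhgc5.

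Beta genes encode whole adhesion proteins without the constant exons that alpha and gamma genes share. Of 21 tested, 12 were called higher, beside 15.8% of all genes tested. The median log2 fold change of the beta genes was 1.89, against 0.04 over all other genes tested. Both values include beta genes that passed the count filter through GL261-GSCs alone, for which a fall could not have been seen. Their levels were low in both cultures. Their summed level was 22.3 and 19.7 CPM in GL261 and 27.6, 34.6, 40.9 and 53.7 CPM in GL261-GSCs, and the groups did not overlap. The sum was 1.87-fold higher in GL261-GSCs (20.99 ± 1.85 CPM, SD, n = 2, against 39.2 ± 11.1 CPM, n = 4). Pcdhb1 was not tested, with 2 UMIs in all.

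Pcdhb11 was the called beta gene whose call was kept in every alternative tried. It was at 0.548 and 0.0994 CPM in GL261 and at 1.93, 3.13, 2.75 and 3.85 CPM in GL261-GSCs (log2 fold change 3.15, SE 0.68, adjusted p = 0.0149 in edgeR). With 1 library left out the log2 fold change ran from 2.4 to 4.83. Pcdhb5 was at 0.696 and 0.547 CPM in GL261 and at 1.35, 3.45, 2.94 and 3.6 CPM in GL261-GSCs (2.18, SE 0.47, adjusted p = 0.0143). Pcdhb18 was at 0.489 and 0.530 CPM in GL261 and at 2.15, 2.35, 1.49 and 2.31 CPM in GL261-GSCs (2.02, SE 0.31, adjusted p = 0.00404). For these 3 genes the lowest GL261-GSCs library lay above the highest GL261 library.

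The largest fitted rise belonged to Pcdhb6, at 3.52 on the log2 scale (SE 0.74), but it rested on 5 UMIs against 114. Pcdhb4, at 3.23, likewise rested on 5 and 101 UMIs. The other beta genes called higher were Pcdhb2, Pcdhb3, Pcdhb7, Pcdhb9, Pcdhb10, Pcdhb17 and Pcdhb20, with log2 fold changes from 1.03 (Pcdhb20) to 3.07 (Pcdhb10). Of these, Pcdhb3, Pcdhb2 and Pcdhb10 also rested on few GL261 UMIs, with 5, 11 and 14 against 63, 157 and 227 in GL261-GSCs. Pcdhb20 was at 1.85 and 1.66 CPM in GL261 and at 2.96, 2.83, 4.21 and 4.37 CPM in GL261-GSCs.

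The 3 beta genes with the highest levels in GL261 did not pass the test. Pcdhb21 was at 3.81 and 3.53 CPM in GL261 and at 2.27, 3.05, 3.56 and 3.35 CPM in GL261-GSCs (log2 fold change -0.26, adjusted p = 0.461). Pcdhb14 was at 2.89 and 2.92 CPM in GL261 and split the GL261-GSCs libraries, with 2.58 and 2.47 CPM in replicates 1 and 2 and 6.28 and 8.87 CPM in replicates 3 and 4 (0.79, adjusted p = 0.334). Without replicates 3 and 4 its fold change was -0.19. Pcdhb15 was the 1 beta gene whose GL261 libraries both lay above all GL261-GSCs libraries (-0.60, SE 0.26, adjusted p = 0.132). Pcdhb8, Pcdhb12 and Pcdhb16 came near the threshold from the other side, with adjusted p-values of 0.0602, 0.0533 and 0.0720 in edgeR.

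The beta calls depend on both GL261 libraries. Without replicate 1 of GL261 2 beta genes were called higher and without replicate 2 only 1 (Pcdhb11 in each case among them), while calls over all genes fell from 5514 to 1972 and 1817. Without GL261-GSCs replicate 3, 7 were called, and Pcdhb4, Pcdhb7, Pcdhb9, Pcdhb17 and Pcdhb20 were not. The call of Pcdhb7 was also lost without replicate 2 or 4, that of Pcdhb20 without replicate 4 or with no filter, and that of Pcdhb4 in limma-voom.

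Most gamma genes did not pass the test. The 3 of 22 called lower are 13.6%, near the 14.1% of all genes tested. Of 19 type A and B genes 2 were called lower, Pcdhgb1 and Pcdhgb8, and 17 had negative log2 fold changes with a median of -0.32. Pcdhgb1, the most abundant variable gamma gene, was at 15.0 and 15.8 CPM in GL261 and at 4.88, 5.23, 7.74 and 9.81 CPM in GL261-GSCs (log2 fold change -1.16, SE 0.30, adjusted p = 0.0284 in edgeR). Pcdhgb8, annotated as a polymorphic pseudogene, was at 1.78 and 1.82 CPM in GL261 and at 0.728, 0.331, 0.600 and 1.02 CPM in GL261-GSCs (-1.44, SE 0.41, adjusted p = 0.0389). Both calls were lost under library size scaling, with every barcode of at least 1000 UMIs taken as a cell, and without either GL261 library or GL261-GSCs replicate 3. The call of Pcdhgb1 was also lost without GL261-GSCs replicate 2, and that of Pcdhgb8 without replicate 1.

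Pcdhga6, the second most abundant variable gamma gene, did not differ beyond the spread of the libraries. It was at 4.10 and 3.73 CPM in GL261 and at 2.34, 2.82, 3.98 and 5.25 CPM in GL261-GSCs, and its fold change of -0.13 changed sign under 4 alternatives. The 4 GL261-GSCs libraries divided in the same way for most variable gamma genes. In 15 of 19 (78.9%) both replicates 3 and 4 lay above both replicates 1 and 2, an order shown by 32.4% of all genes tested and by 11 of 21 beta genes. The summed level of these 19 genes was 34 and 33.6 CPM in GL261 and 15.2, 15.3, 24.3 and 31.3 CPM in GL261-GSCs. With this TMM scaling replicates 1 and 2 lay well below GL261 and replicate 4 just below it. By library size alone replicate 4 lay above both GL261 libraries. It held 1141 of 33307870 UMIs of tested genes, against 2296 of 71039964 and 2027 of 65769401 in GL261. Without replicates 3 and 4 of GL261-GSCs 9 gamma genes of any type were called lower in place of 3, while calls of lower genes over all genes went from 2594 of 18439 to 3321 of 17540.

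The C-type gamma genes, which are known to be expressed more evenly from cell to cell than the variable ones, held 10438 of 14253 and 8875 of 12090 clustered UMIs in GL261, and 4884 of 7708, 3834 of 7454, 6136 of 11365 and 2497 of 5626 in GL261-GSCs replicates 1 to 4. Pcdhgc3 was at 150 and 144 CPM in GL261 and at 72.3, 51.3, 74.3 and 66.0 CPM in GL261-GSCs, and its log2 level fell by 1.15 (SE 0.17, adjusted p = 0.00314 in edgeR). The groups did not overlap, and the call was kept in all alternatives. Pcdhgc4 was at 2.49 and 1.86 CPM in GL261 and at 1.0, 0.759, 1.29 and 1.43 CPM in GL261-GSCs (-0.96, adjusted p = 0.0617). Pcdhgc5 was at 1.94 and 1.61 CPM in GL261 and at 0.758, 0.897, 1.16 and 1.13 CPM in GL261-GSCs (-0.85, adjusted p = 0.0577). Neither passed the threshold in edgeR, although their groups did not overlap.

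Alpha genes were close to silent in both cultures, with 14 and 0 UMIs in the 2 GL261 libraries and 3, 2, 12 and 32 UMIs in GL261-GSCs replicates 1 to 4 over all 14 genes. Pcdha7 and the C-type genes Pcdhac1 and Pcdhac2 had 0 UMIs in every library. Pcdha3 was counted 0 times in GL261 and 0, 0, 2 and 9 times in GL261-GSCs replicates 1 to 4, so most of its UMIs came from 1 library. Pcdha1 had 4 and 3 UMIs, and Pcdha2 had 3 and 5. The count filter left all of them out of the test.

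**Figure D2:**
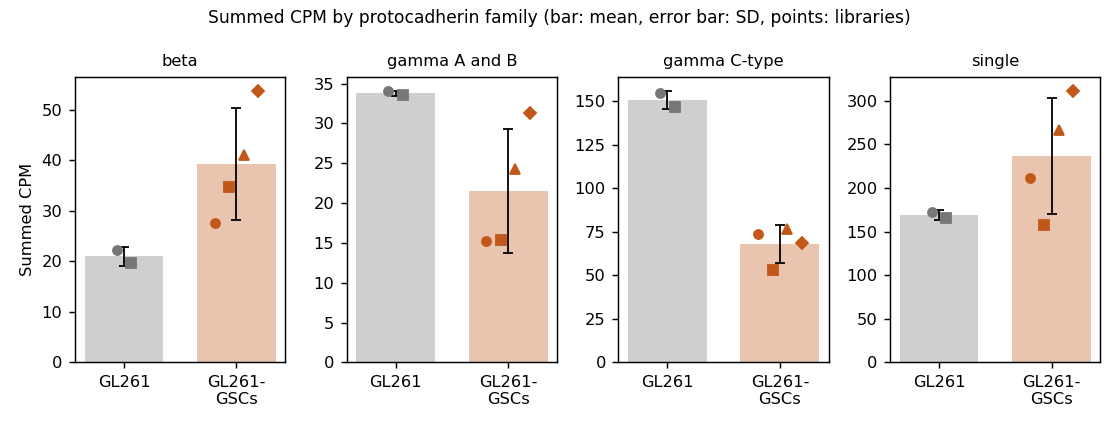
Summed CPM of the beta, gamma A and B, gamma C-type and single protocadherins, with bars for the mean of each group, error bars for the SD and a point per library (GL261 n = 2, GL261-GSCs n = 4). The beta sum is higher in each GL261-GSCs library and both gamma sums are lower, with replicate 4 the highest GL261-GSCs library for beta, gamma A and B and single genes. By library size alone, without TMM scaling, the gamma A and B sum of replicate 4 lies above both GL261 libraries.

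Over the beta and gamma clusters the fold change declined along the chromosome, from positive values at the start of the beta cluster to negative values at the end of the gamma cluster. Spearman's rho between the start of a gene and its log2 fold change was -0.86 across 43 genes, -0.80 across the 21 beta genes alone and -0.38 across the 19 variable gamma genes alone. It was negative in each GL261-GSCs library, between -0.54 and -0.76 for beta genes and between -0.20 and -0.47 for variable gamma genes (log2 of CPM plus 0.05). These points are genes that share libraries and promoter and exon structure, so rho is a description. All 10 genes from Pcdhb2 to Pcdhb11 had positive fold changes with a median of 2.76, and 9 of them were called higher. From Pcdhb12 to Pcdhb22 the median was 1.03 over 11 genes, and 3 were called higher. Among all genes tested, 15.8% were called higher. The border between these segments was chosen after the values were seen. Pcdhb2, Pcdhb3, Pcdhb4, Pcdhb6, Pcdhb8 and Pcdhb10 had 0 to 8 UMIs per GL261 library and passed the count filter through GL261-GSCs alone. Pcdhb7 and Pcdhb11 passed it in GL261 replicate 1 but not in replicate 2, and so also needed GL261-GSCs. The signs, median and calls of the first segment, and rho, are thus in part set by the filter. Across the beta genes, rho between the fold change and the mean CPM was -0.88 with the level in GL261 and -0.57 with that in GL261-GSCs, and the fold change is itself computed from these levels.

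**Figure D3:**
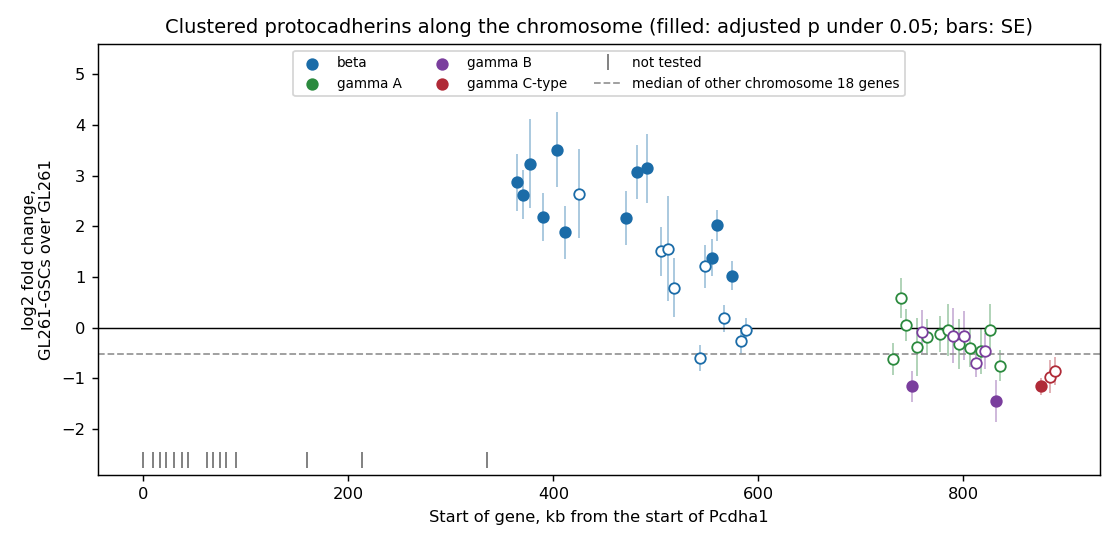
Log2 fold change (GL261-GSCs over GL261) of each tested clustered gene against its start, in kb from the start of Pcdha1, with bars for the SE, filled symbols for an adjusted p under 0.05 and grey ticks for genes not tested. Beta genes on the left reach 3.52, most gamma genes on the right lie below 0, and the dashed line marks the median of other chromosome 18 genes at -0.53.

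Chromosome 18 as a whole was lower in GL261-GSCs. Its 409 other tested genes had a median log2 fold change of -0.53, and 39.6% of them were called lower and 10.3% higher, whereas the median over all other genes tested was 0.04. The median was between -0.66 and -0.35 in each GL261-GSCs library. Within 1 Mb of the clusters (1000000 bases to either side), 19 of 44 other tested genes were called lower and 3 higher, with a median of -0.80. Some of the 44 lie within the clusters, among them BC037039 and Gm38182, called lower, and Gm10544 and Gm20162, called higher. Spry4, the remaining gene called higher, lies past the gamma cluster. Hdac3, which codes for a histone deacetylase, and Diaph1, an actin nucleator, lie just past the gamma cluster and changed by -1.0 and -1.59, while Taf7, between the beta and gamma clusters, was not called (-0.29, adjusted p = 0.265). Pcdh1 lies on the same chromosome. The falls of Pcdh1 and of the 3 gamma genes called lower stand beside a lower level of the chromosome around them, and the part of that level in these falls was not tested. The 12 beta genes called higher lie within the same region.

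Overlapping gene models limit some values. The antisense transcript BC037039 covers 46.1% of the first exon of Pcdhgc3. It was at 29.7 and 25.3 CPM in GL261 and at 10.9, 8.24, 11.7 and 7.55 CPM in GL261-GSCs, and its log2 level fell by 1.52 (SE 0.22, adjusted p = 0.00296 in edgeR). Gm37446 lies antisense to 63.5% of Pcdhb12, and Gm26672 antisense to 100% of the first exon of Pcdhga10. The sources used here do not state the strand setting of the counting. Alpha and gamma genes share their constant exons, and some gene models of the clusters overlap further. Exons of other genes on the same strand cover 53.5% of the exonic bases of Pcdha1, 54.6% of those of Pcdhgb1 and 39.8% of the first exon of Pcdhga4. The cover is highest for Pcdha4, at 91.4% of its exonic bases and 96.3% of its first exon. Beta genes are close paralogs, so the counting could split or drop reads among all these genes.

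Per cell, protocadherins were sparse. To compare shares of cells at 1 depth, each cell was thinned to 2000 UMIs, which no called cell fell short of. No cell type that should lack these genes was identified in the cultures, so each share is set beside the share that 2000 UMIs of free RNA, taken from barcodes with 100 to under 1000 UMIs (median 472 to 679), would give. The share of cells with a UMI of Pcdh15 was 0 and 0.0200% in GL261 compared with 5.89, 1.41, 26.9 and 35.3% in GL261-GSCs, against 3.09, 0.589, 13.7 and 19.1% in free RNA of these 4 libraries. For GL261 replicate 1, 0 of 4808 cells sets an upper limit of 0.0624% by the rule of 3 counts and of 0.0767% by the exact interval. This limits cells with a UMI at this depth, not cells that express the gene. Without thinning, 0.0208% of its cells had a UMI of Pcdh15. In GL261-GSCs replicates 3 and 4, 95% intervals (exact, Clopper-Pearson) were 25.9 to 27.9% and 33.9 to 36.7%, which cover counting error only.

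Pcdh17 and Pcdh7 were likewise seen in more cells than free RNA would give in every library. Pcdh17 was in 1.62 and 1.22% of GL261 cells and in 16.7, 13.2, 9.76 and 12.8% of GL261-GSCs cells, where free RNA would give 6.13 to 8.41%. Pcdh7 was in 3.81 and 4.06% of GL261 cells and in 8.37, 7.60, 8.51 and 11.2% of GL261-GSCs cells, where free RNA would give 3.27 to 4.85%. Pcdh9 was in 0 of the GL261 cells at this depth and in 10.7, 5.78, 3.12 and 4.32% of GL261-GSCs cells, where free RNA would give 1.33 to 5.16%. For each of Pcdh15, Pcdh17, Pcdh7 and Pcdh9 the order of the GL261-GSCs libraries was the same by this share as by CPM.

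Pcdh10 and Pcdh18 stood close to free RNA in several libraries. Pcdh10 was in 2.16, 3.58, 5.10 and 5.39% of GL261-GSCs cells, where free RNA would give 1.61, 2.63, 4.80 and 5.07%. Pcdh18 was in 7.53 and 7.76% of GL261 cells, against 6.68 and 5.23% in free RNA, and its share in GL261-GSCs replicate 2 (1.06%) was at the level of free RNA (1.06%). Pcdhgc3 was in 24.5 and 22.6% of GL261 cells and 14.9, 11, 15.3 and 14.8% of GL261-GSCs cells. The share in GL261-GSCs replicate 3 was below the 16.8% that free RNA would give. As no cell type lacking the gene was identified, this comparison cannot separate RNA of the cells from free RNA in that library. Pcdh1 was in 17.1 and 16.1% of GL261 cells, above the 10.7 and 7.56% of free RNA, and in 0.375 to 2.60% of GL261-GSCs cells. Pcdhgb1 was in 2.97 and 3.04% of GL261 cells, above the 1.39 and 1.01% of free RNA, and in 1.13, 1.19, 2.39 and 3.15% of GL261-GSCs cells, above 0.414, 0.577, 1.07 and 1.74%. Without thinning the shares of Pcdhgc3 were 74.2 and 71.6% in GL261, where free RNA would give 78.9 and 66.8%, and 60.5, 43.0, 49.6 and 36.9% in GL261-GSCs, where it would give 57.2, 40.8, 59.2 and 36.5%.

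**Figure D4:**
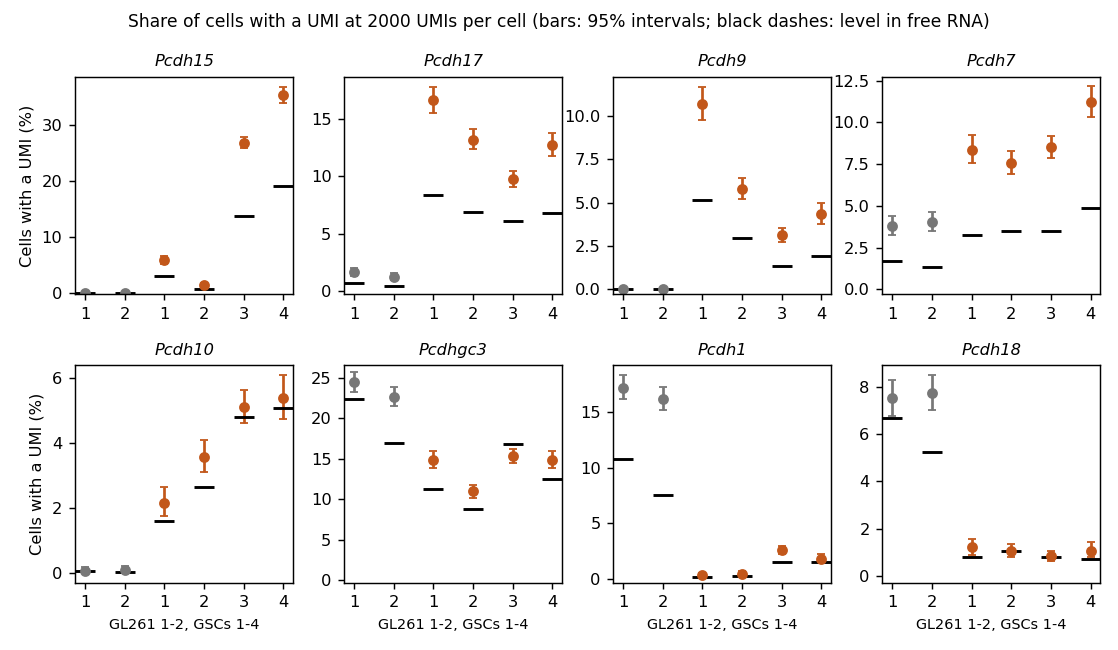
Share of cells with a UMI of 8 protocadherins at 2000 UMIs per cell, by library (2 of GL261, grey, then 4 of GL261-GSCs, orange), with 95% exact intervals and black dashes for the share that free RNA would give. Pcdh15, Pcdh17, Pcdh9 and Pcdh7 lie above the dashes in each GL261-GSCs library, whereas Pcdh10 and Pcdh18 lie close to them and Pcdhgc3 falls below its dash in replicate 3.

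At 2000 UMIs a GL261 cell showed on average 0.365 ± 0.0201 clustered protocadherin genes (SD, n = 2) and a GL261-GSCs cell 0.323 ± 0.0858 (n = 4). For single genes the averages were 0.299 ± 0.00634 and 0.519 ± 0.166. The clustered averages overlapped between the groups, and the single averages did not, with 0.303 and 0.294 in GL261 compared with 0.455, 0.332, 0.569 and 0.721 in GL261-GSCs. Without thinning they were 1.45 and 1.14 for clustered genes and 1.27 and 1.70 for single genes. The share of cells with none of the 70 genes at 2000 UMIs was 50.1 and 53.6% in GL261 compared with 50.9, 59.1, 43.0 and 35.6% in GL261-GSCs.

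Isoform choice in neurons concentrates the protocadherin molecules of a cell on few genes, which raised the question whether the UMIs of a glioma cell do so. Pairs of UMIs from 1 cell were compared with pairs from different cells of the same library. Among beta genes, 19.5% of 451 within-cell pairs in GL261 replicate 1 came from the same gene, against 10.3% between cells. The ratio of these shares was 1.90 and 1.95 in GL261 compared with 1.64, 2.07, 1.59 and 1.56 in GL261-GSCs. With cells not thinned it was thus above 1 in all 6 libraries. Among variable gamma genes it was 0.965 and 0.952 in GL261 compared with 1.01, 0.690, 0.761 and 0.876 in GL261-GSCs, and over both families 1.25, 1.19, 1.55, 1.75, 1.33 and 1.38. In cells thinned to 2000 UMIs the ratio over both families was below 1 in GL261 (0.830 and 0.595, from 129 and 104 pairs) and above 1 in GL261-GSCs replicates 2 to 4 (1.34, 1.51 and 1.58). Most cells with 2 such UMIs still had them from different genes, in 84.1 to 92.8% per library. Pairs within a cell are not independent, no test was made, and doublets and UMIs counted more than once were not removed here.

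**Figure D5:**
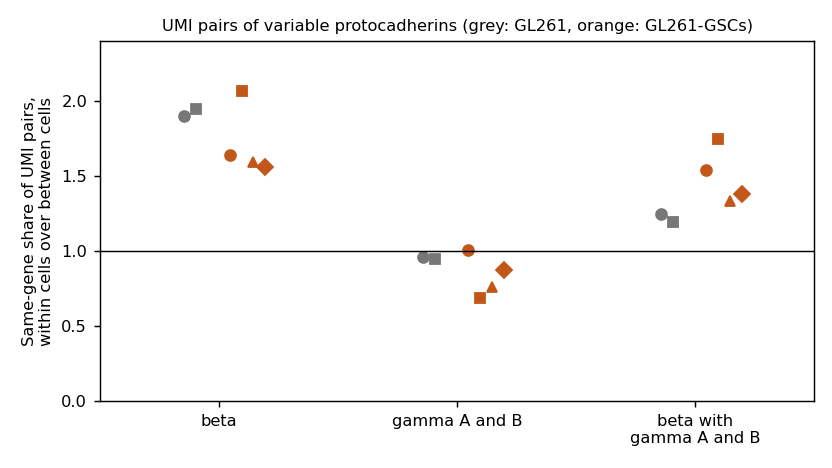
Share of UMI pairs from the same gene within cells over that between cells of the same library, for beta genes, variable gamma genes and both, with a point per library. With cells not thinned, beta genes lie between 1.56 and 2.07 in the 6 libraries, and variable gamma genes between 0.690 and 1.01.

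For each of the 6 pairs of single genes examined, cells with a UMI of the first gene held the other more often than cells without one in all 4 GL261-GSCs libraries, and no test of this was made. Pcdh15 and Pcdh17 are an example. In GL261-GSCs replicates 1 to 4 the shares of cells with Pcdh17 were 19.9, 20.5, 11.3 and 16.8% with Pcdh15 and 16.4, 13.1, 9.21 and 10.6% without it, at 2000 UMIs per cell. For Pcdh9 the shares were 12.4, 6.02, 3.94 and 4.71% with Pcdh15 and 10.6, 5.77, 2.82 and 4.11% without it. The positive cells of replicate 2 were 83 in number, of which 5 also held Pcdh9.

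Genes known to control the clusters were called about as often as other genes, of which 15.8% were higher and 14.1% lower. Of 18, all tested, 3 were higher (Stag2, Dnmt3a and Wiz) and 2 lower (Setdb1 and Rest) in GL261-GSCs. Their median log2 fold change was 0.17. Dnmt3a, a DNA methyltransferase, was at 24.0 and 23.2 CPM in GL261 and at 54.6, 62.0, 74.0 and 85.7 CPM in GL261-GSCs (log2 fold change 1.55, SE 0.21, adjusted p = 0.00243 in edgeR). Rest, a repressor of neuronal genes, was at 90.4 and 93.2 CPM in GL261 and at 71.3, 59.3, 57.4 and 56.4 CPM in GL261-GSCs (-0.59, SE 0.13, adjusted p = 0.0179). Ctcf itself had a log2 fold change of -0.11 (adjusted p = 0.627). This list is sensitive to the choices made: 8 genes were called under library size scaling, and 1 without either GL261 library or GL261-GSCs replicate 3.

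Partners of protocadherins and enzymes that process them included genes called in both directions. Of 21 tested of 22, 4 were higher and 6 lower, beside 15.8% and 14.1% of all genes tested. The median over the list was 0.08. The 4 that rose were Cyfip2, Abi2, Wasf1 and Wasf3, and the 6 that fell were Cyfip1, Abi1, Ppp1ca, Adam10, Psen2 and Marcks. Cyfip, Abi and Wasf proteins are subunits of the WAVE complex of actin assembly, of which Nckap1 (log2 fold change 0.05), Wasf2 (-0.17) and Brk1 (-0.42) were not called. Wasf1 was at 29.3 and 32.8 CPM in GL261 and at 95.3, 134, 132 and 147 CPM in GL261-GSCs (2.04, SE 0.21, adjusted p = 0.000821 in edgeR). Cyfip2 changed by 2.01 and Cyfip1 by -0.87. Adam10, a protease that sheds protocadherins, was at 205 and 234 CPM in GL261 and at 72.3, 72.5, 92.2 and 90.0 CPM in GL261-GSCs (-1.43, SE 0.15, adjusted p = 0.000951). Without either GL261 library 6 or 4 genes of this list were called.

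Of the partners of Pcdh15 in the hair cell tip link few had enough UMIs to be tested, so little can be read from their calls. Of 9 genes 4 were tested and 0 were called in either direction by edgeR, beside 29.9% of all genes tested, with 0 also at an unadjusted p under 0.05 and by DESeq2 and limma-voom. Cdh23, the tip link cadherin that pairs with Pcdh15, was below the count filter, with 0 to 0.0625 CPM in the 6 libraries. Myo7a, a motor of the complex, was at 9.85 and 10.4 CPM in GL261 and at 8.20 to 12.6 CPM in GL261-GSCs. Tmie, a part of the transduction channel, was at 0.193 and 0.232 CPM in GL261 and at 0.0275 to 0.248 CPM in GL261-GSCs, and it was called lower without GL261-GSCs replicate 2 (adjusted p = 0.0305 in edgeR).

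Other cadherins were called in both directions. Of 34 listed genes 17 were tested, of which 6 were higher (Cdh10, Cdh15, Cdh18, Cdh19, Cdh20 and Dchs1) and 3 lower (Cdh2, Cdh5 and Cdh6), beside 15.8% and 14.1% of all genes tested. Cdh2, N-cadherin, was at 789 and 740 CPM in GL261 and at 48.7, 43.3, 57.1 and 63.6 CPM in GL261-GSCs, and fell by 3.85 (SE 0.18, adjusted p = 5.54e-05 in edgeR). Cdh2 also lies on chromosome 18. Cdh19, a cadherin of glial precursors, was at 10.6 and 13.2 CPM in GL261 and at 112, 133, 130 and 129 CPM in GL261-GSCs, and rose by 3.41 (SE 0.17, adjusted p = 7.68e-05 in edgeR).

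Some markers of other cell types differed between the groups and others did not. The 5 oligodendrocyte precursor markers included Olig1, at 1.30 and 0.0166 CPM in GL261 and 384 to 892 CPM in GL261-GSCs, and 3 of the 5 were called higher (Olig1, Olig2 and Pdgfra), beside 15.8% of all genes tested. Cspg4 (mean 182 against 127 CPM) and Sox10 (344 against 343 CPM) were not called. The 5 microglia and macrophage markers summed to 12.9 and 13 CPM in GL261, nearly all Csf1r, and to 0.192 to 0.349 CPM in GL261-GSCs. The 4 fibroblast and pericyte markers, led by Col1a1, summed to 252 and 287 CPM in GL261 and to 11.1 to 26.8 CPM in GL261-GSCs. Col1a1 and Pdgfrb were called lower. The other members of this list went the other way at low levels. Dcn had a mean of 0.0593 against 0.242 CPM and was not called, and Rgs5 had 0 against 21 UMIs and was not tested. Among the neuron markers, Syt1 had 3 UMIs in GL261 and was at 1.15, 12.4, 51.6 and 78.2 CPM in GL261-GSCs, higher in replicates 3 and 4 as was Pcdh15, while Tubb3 was at 85.0 and 92.3 CPM in GL261 and 4.15 to 45.8 CPM in GL261-GSCs. The astrocyte marker Slc1a3 was at 0.163 and 0 CPM in GL261 and 61.2 to 85.7 CPM in GL261-GSCs, and Gja1 at 39.5 and 38.2 against 43.9 to 127 CPM, while Gfap (mean 1.29 against 0.0175 CPM) and Aldh1l1 (6.80 against 0.00692 CPM) were called lower. Of the 4 astrocyte markers tested 1 was higher and 2 were lower. Rbfox3 of neurons, Aqp4 of astrocytes, C1qa of microglia and Cldn5 and Tie1 of endothelium had 0 UMIs in every library. The 6 neuron markers summed to 85.1 and 92.3 CPM in GL261 and to 37.3 to 83.0 CPM in GL261-GSCs. Astrocyte markers summed to 46.1 to 48.0 CPM in GL261 and 112 to 188 CPM in GL261-GSCs, oligodendrocyte markers to 172 to 268 and 164 to 237 CPM, and endothelial markers to 0.431 to 1.32 and 0.364 to 0.888 CPM. The part of these markers in the protocadherin results was not tested.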

How the data were processed

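The files hold counts of UMIs per gene and barcode that the authors deposited for all barcodes of each of the 6 libraries. They were made with Cell Ranger (version 4 per the file headers) on mm10, per the submitters' processing notes. The sources used here do not state the strand setting of the counting. A barcode was called a cell with at least 10% of the 99th percentile of UMIs of the top 3000 barcodes, at least 500 genes and at most 10% mitochondrial UMIs. Doublets were not removed here. UMIs of called cells were summed per library (33320530 to 79472306 UMIs), filtered with filterByExpr, scaled by TMM and tested with edgeR's quasi-likelihood test (4.0.16, R 4.3.3) on all 6 libraries, with Benjamini-Hochberg adjustment over all genes tested. The SE is the absolute log2 fold change over the square root of F. Ratios with 3 or fewer UMIs in a group carry exact 95% counting intervals, and these and the shares of cells cover counting error only. The fits and counting steps were tested on simulated data. Positions come from GENCODE M21, matched by gene identifier, and upstream sequences from RefSeq (GRCm38.p6), with chromosome 18 left out. Python 3.11.15 with numpy 2.4.6, pandas 2.3.3, scipy 1.17.1 and matplotlib 3.10.9 was used for the remaining steps.

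Genes named are all single protocadherins, the 3 members of each cluster with the most UMIs, all C-type genes, all members called, and the 2 genes of each list with the smallest p. Antisense transcripts, neighbouring genes, markers, Pcdha4, Pcdhga4, Ctcf, Cyfip1, Cyfip2, Cdh23 and some further beta genes were named after their values were seen. The members and gene lists were chosen with earlier results of these data known. Alternatives were library size scaling, DESeq2 1.42.0, limma-voom (limma 3.58.1), no filter, a looser cell call at 1000 UMIs, the replicate number as a block and leaving out libraries. Omission of GL261-GSCs replicates 1 and 2, or 3 and 4, was chosen after seeing the data.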

Additional observations from a re-analysis of the deposited data

Results flagged for a closer look

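In 4 of 50 groups of GL261-GSCs libraries examined, 1 library lay farther from the other 3 than Dixon's test allows at the 95% level, and chance alone would mark about 1 in 20. The level of Pcdh7 was 41.7 CPM in replicate 4 and 34.6 to 35.8 CPM in the others. The summed level of the alpha genes was 0.879 CPM in replicate 4, from 32 UMIs, and 0.0276 to 0.150 CPM in the others. The level of Tmie was 0.248 CPM in replicate 2, from 18 UMIs, and 0.0275 to 0.0625 CPM in the others. The share of cells with a Pcdhgc3 UMI at 2000 UMIs per cell was 11% in replicate 2 and 14.8 to 15.3% in the others.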

How the results depend on the processing

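Of the 23 members called, 7 were called in every alternative run (Pcdh1, Pcdh9, Pcdh10, Pcdh17, Pcdh18, Pcdhb11 and Pcdhgc3) and 16 in every alternative that used all libraries. For the 38 named genes that were fitted, 531 fits gave the same direction and side of the threshold in 451, a lost call in 56, a gained call in 14 and another sign in 10. With 1 library left out, members called higher numbered 5 to 18 (5 without either GL261 library) and members called lower 3 to 6. For beta genes called higher this range was 1 to 13, for gamma genes called lower 1 to 3, for single genes called higher 3 to 5 and lower 2 to 3. For called genes of the control list it was 1 to 6, of the partner list 4 to 11, of the tip link list 0 to 1 and of the other cadherins 6 to 9. When an arm was left with 1 library, that library was assumed to vary like the others.

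Gamma genes called lower numbered 1 under library size scaling and 1 with barcodes of at least 1000 UMIs, against 5 in DESeq2 and 5 in limma-voom. The control list had 8 called genes under library size scaling and 2 with no filter. Without GL261-GSCs replicates 1 and 2 together it had 10 and the tip link list 1. Without replicates 3 and 4 together the control list had 8, while 12 members and 9 gamma genes were called lower. Library size scaling moved the median over all genes from 0.04 to 0.18 and the split of calls from 2920 higher and 2594 lower to 3491 and 2034. It made the difference of the summed gamma C-type level -70.5 CPM in place of -82.7 CPM. Calls over all genes numbered 6760 in DESeq2, 5444 in limma-voom, 9881 without replicates 1 and 2 and 6985 without replicates 3 and 4.

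The replicate numbers share only a number between the groups, with correlations of deviations of -0.026 and 0.037 for libraries 1 and 2. With the replicate block, 11 members and 8 gamma genes were called lower, and 6512 genes in all. Members called higher fell to 14 and beta genes called higher to 9, and Pcdhb7, Pcdhb17 and Pcdhb20 lost their calls (adjusted p = 0.0819, 0.0583 and 0.0780 in edgeR).

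The log2 fold change of Pcdhb14 was -0.20 with the replicate block and -0.19 without replicates 3 and 4. That of Pcdhga6 was 0.0306 under library size scaling, 0.0803 with barcodes of at least 1000 UMIs, 0.25 without GL261-GSCs replicates 1 and 2, and -0.34 to 0.0476 with 1 library left out (0.0476 without GL261-GSCs replicate 1). That of Myo7a was 0.0889 under library size scaling, 0.15 without replicates 1 and 2, and -0.19 to 0.0207 with 1 library left out, above 0 without replicate 1 or 2. The cause of these changes was not tested.

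With cells not thinned, the difference in genes per cell (GL261-GSCs minus GL261) was -0.306 for clustered and 0.430 for single genes. Differences in the share of cells with a UMI were then 43.0 points for Pcdh15, 36.6 for Pcdh17, 24.0 for Pcdh9, 14.6 for Pcdh10, 11.7 for Pcdh7, -32.6 for Pcdh18, -54.2 for Pcdh1 and -25.4 for Pcdhgc3. Free RNA would also give higher shares at these depths, and for Pcdh10 in GL261-GSCs replicates 2 to 4 (14.5, 22.9 and 17.0%) more than was seen in cells (13.7, 18.6 and 14.8%). For Pcdh18 it would give 38.5% in GL261 replicate 1, against 38.0% in cells, and 4.30% in GL261-GSCs replicate 3, against 3.46%. For Pcdh1 in GL261-GSCs replicate 4 both shares were 5.50%. Pcdhgc3 also fell below free RNA in GL261 replicate 1 and GL261-GSCs replicate 3. The ratio of same-gene pairs over beta and variable gamma genes was 1.17 in cells thinned to 2000 UMIs, with means of 0.712 in GL261 and 1.48 in 3 GL261-GSCs libraries, and that of variable gamma genes was 1.0 without the 10% of cells with the most UMIs. Thinned cells gave under 100 pairs of variable gamma UMIs, so no value.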
